A study of Mus musculus with 12 samples.

Results

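Kinesins are motor proteins that use ATP to walk along microtubules, to carry cargo over them or to take subunits off their ends. They fall into numbered classes: transport motors of classes 1, 2 and 3, motors that push, align or bundle microtubules in the spindle, and the kinesin-13 enzymes that shorten microtubules. A mouse oocyte builds its spindle without centrioles, moves it to the cortex and divides very unequally, and it does so mostly from RNA that it stored while it grew. At the germinal vesicle (GV) stage the oocyte is arrested before meiotic division, and at metaphase II (MII) it is the ovulated egg.

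The kinesin genes described here are all genes whose symbol starts with Kif and a digit in the table of MII eggs. The rule uses names and no measured value, and it gave 34 of the 22801 genes listed at MII. They comprise 33 motor genes of 12 kinesin classes and Kif1bp, which encodes a kinesin-binding protein and no motor. Of the 34, 33 had a mean normalized count of at least 1 and were tested, and Kif5a was left out by that filter. The GV table holds only genes that the authors marked as different between genotypes (an unadjusted p under 0.05 and a change over 2-fold), and 2 of the 34 kinesin genes, Kif24 and Kif21a, are among its 3475 genes. The other 32 are not listed there, which says that they were not selected, not that they were absent or equal. The symbols Kif1a, Kif2b, Kif6, Kif7 and Kif12 matched no row at MII and were not analysed here.

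RNA was measured in 12 libraries of oocytes from C57BL/6 mice aged 35 days, with 15 oocytes pooled per tube. Control oocytes (WT) carried 2 floxed alleles of Lsm14b and no Cre (Lsm14bfl/fl). Knockout oocytes (CKO) carried the same floxed alleles and Gdf9-Cre, a transgene that expresses Cre recombinase in oocytes of growing follicles. Lsm14b encodes an RNA-binding protein of cytoplasmic ribonucleoprotein granules. Each stage had 3 WT and 3 CKO libraries, named as biological replicates, and which animals gave each pool is not given in the sources used here.

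The MII libraries held 88494525 to 124872889 reads in WT and 23077585 to 40530314 in CKO, so that every WT library was deeper. Lsm14b itself was at 8.22% of its WT mean in MII CKO eggs and at 6.26% in GV CKO oocytes. WT replicate 3 at MII stood apart: its rank correlation across genes (Spearman) was 0.847 to 0.877 with each of the other 5 MII libraries, which had 0.899 to 0.94 among themselves. Oocyte markers had a high sum in all MII libraries (11 of 11 listed, summed normalized count 570294 to 688987 in WT and 651187 to 749062 in CKO). Their levels were uneven, with Figla at a mean of 161 in WT and 193 in CKO and Ddx4 at 595 and 993. Without overlap, Zp2 (62024 and 127429), Zp3 (4281 and 10217) and Nlrp5 (99076 and 169806) were higher in CKO, and Bmp15 (132010 and 62632) was lower. Cumulus and granulosa markers summed to 1102 to 3128 in WT and 717 to 1178 in CKO (10 of 14 listed; Foxl2, Tnfaip6, Ptx3 and Amhr2 had no row). Cyp19a1 was the largest part of that sum, with a mean of 1575 in WT and 708 in CKO and overlapping libraries. The means of the low markers went both ways, but those that separated were higher in CKO. Fshr (mean 12.99 in WT and 115 in CKO), Inhba (1.96 and 24.5) and Ptgs2 (2.55 and 72.8) were higher in CKO without overlap. Has2 (18.5 and 0), Amh (9.57 and 0), Inha (10.6 and 3.67) and Star (151 and 89.5) had lower means with overlapping libraries. At an unadjusted limma p under 0.05, 3 markers of this list were higher and 0 lower, against 6.7% and 9.28% of all genes. By limma, 5 tested markers of this list were above 0 and 4 below. Theca, stroma and endothelium markers summed to 3760 to 4715 in WT and 3942 to 4655 in CKO (5 of 9), mostly from Pecam1, while Tie1 (615 and 205) and Kdr (139 and 21.6) were lower in CKO without overlap. Blood and immune markers summed to 1118 to 1925 in WT and 194 to 215 in CKO (3 of 6). That difference is C1qb alone (1482 and 147), since Cd68 (31.5 and 58.6) had the other direction and Ptprc was at 1.20 and 0. None of the 5 sperm markers had a row. Their part in the kinesin values was not tested. In pooled oocytes, fewer intact oocytes and less RNA per oocyte cannot be told apart.

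Stored oocyte messages are used through signals near their 3′ ends: a poly(A) signal (AATAAA or ATTAAA), and in part of them a cytoplasmic polyadenylation element, here the letters TTTTAT or TTTTAAT, which can direct tail lengthening and translation during meiotic maturation. The last 100 bases of each annotated transcript (GENCODE M21, GRCm38) were read on the sense strand only, the signal was searched in the last 40, and the motifs were allowed to overlap. The sites below are those of 4 kinesin genes that pass the authors' threshold at one of the stages (Kif2c, Kif3b, Kif24 and Kif21a), and of 3 that carry the element. Capitals mark the signal and, in the last 3, also the element.
Kif2c: gctgtacctaacAATAAAgaaagaagaaaa
Kif3b: actaaaatgtgtAATAAAaatcaatcaaat
Kif24: acaaatgccaagATTAAAgatgtagcatac
Kif21a: agctagtgcttaAATAAAcatgtgctatga
Kif18a: ataTTTTATtacttggtatATTAAAgatgt
Kif20b: taaTTTTAATtcAATAAAtatatcagtaat
Kif11: taaATTAAAttaTTTTAATtttt
In GRCm38 these are chr4:117159643-117159672 (Kif2c, minus strand), chr2:153333345-153333374 (Kif3b, plus), chr4:41390755-41390784 (Kif24, minus), chr15:90933288-90933317 (Kif21a, minus), chr2:109341708-109341737 (Kif18a, plus), chr19:34975705-34975734 (Kif20b, plus) and chr19:37421837-37421859 (Kif11, plus), all within annotated 3′ untranslated regions. A signal was found in 23 of the 33 kinesin genes with a usable transcript end (69.7%), against 73.3% of 19829 genes. The polyadenylation element was found in 7 (21.2%, against 17.8%): Kif9, Kif11, Kif18a, Kif20b, Kif26a, Kif26b and Kif27. None of the 5 kinesin genes that pass the authors' threshold (the 4 above and Kif5b) has the element in this window. A match is a description of letters and not a functional site.

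In control MII eggs the motor genes spanned levels from no read to 2652 normalized counts per kb of exon, the scale used here to compare genes of different length. The 6 motor genes above 1000 per kb were Kif23, Kif4, Kif5c, Kif22, Kif17 and Kif14. Kif23, a kinesin-6 of the central spindle needed for polar body division, was highest at 2652 ± 1504 per kb (SD, n = 3), followed by the chromokinesin Kif4 at 1931 ± 324. Kif5c (a kinesin-1 heavy chain best known from neurons) stood at 1209 ± 892, the chromokinesin Kif22 at 1192 ± 382, the homodimeric kinesin-2 Kif17 at 1149 ± 252 and Kif14 (kinesin-3, a midbody motor) at 1007 ± 110.4. The next in order were Kif20a (876 ± 58.5), a second kinesin-6, and Kif2c (548 ± 90.3), a kinesin-13. Neighbours in this order from Kif4 to Kif14 did not differ beyond the spread of the WT libraries, and the SD of Kif23 also spans the level of Kif4.

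A further 12 motor genes lay between 100 and 1000 per kb, 10 between 10 and 100, and 5 at or below 10. Kif11 (Eg5), the kinesin-5 that slides spindle microtubules apart, was only in the lower range with 91.9 per kb, and Kif15, the kinesin-12 that can share this task, was at 15.2. The 5 highest motors held 57% of the summed motor level. By class, kinesin-6 held 27.4% ± 7.79 of the sum in WT libraries, kinesin-4 15.6% ± 0.483 and kinesin-2 13.1% ± 3.25. Kinesin-13 held 9.79% ± 2.45, kinesin-10 (Kif22) 8.71% ± 3.64 and kinesin-1 8.65% ± 4.93. Among the motor genes that the symbol rule takes, those of the central spindle and the chromosomes led in RNA level, with 1 kinesin-1 and 1 kinesin-2 among them. Kinesins with other symbols are outside this order and these sums. Of those, Cenpe stood at 1074 ± 729 per kb in WT, in the range of the highest motors, and Kifc1 at 801 ± 151.

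**Figure D1:**
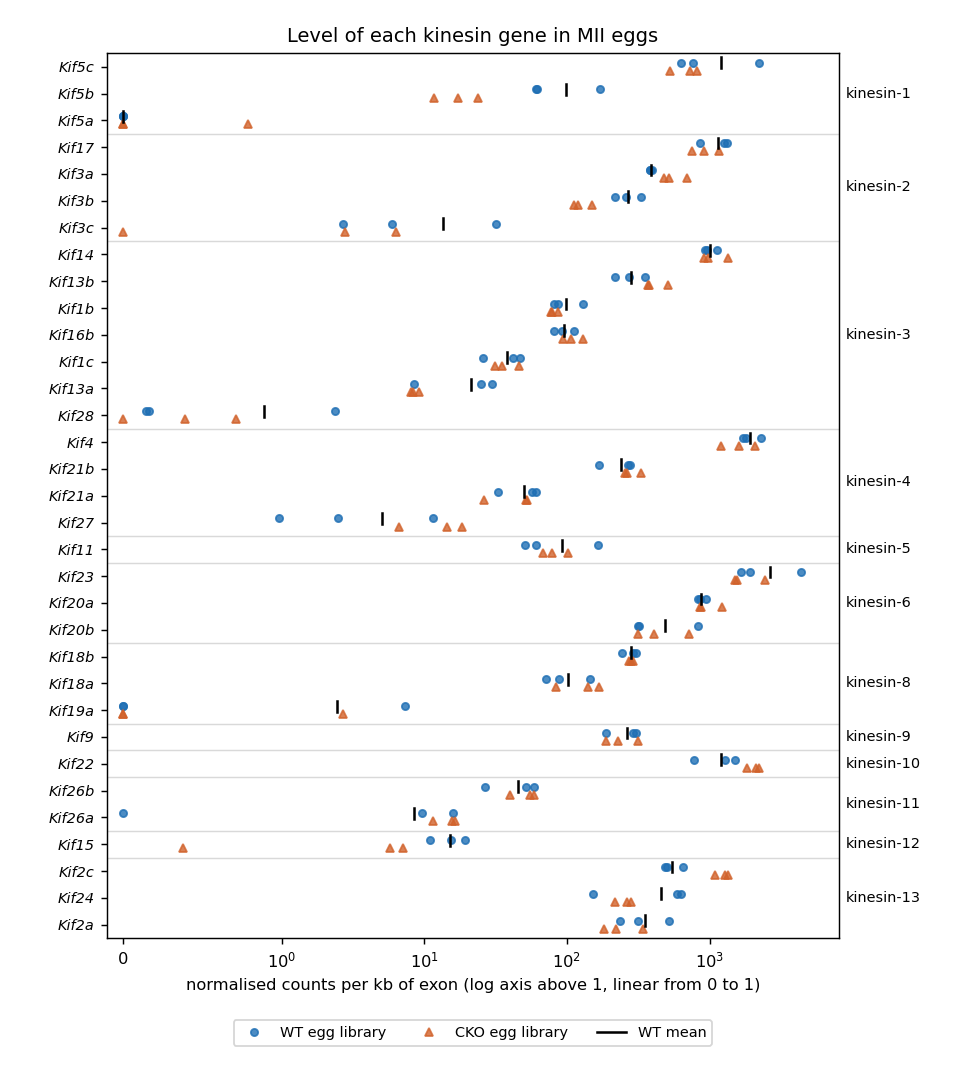
Level of each motor gene in MII eggs, in normalized counts per kb of exon (log axis above 1, linear from 0 to 1), with 1 circle per WT library, 1 triangle per CKO library, a bar at the WT mean, and genes grouped by kinesin class. Kif23 is highest in WT with a mean of 2652 per kb, and Kif5a, Kif19a and Kif28 are at the low end.

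The sum over all motor genes was 14264 ± 2195 normalized counts per kb in WT and 13915 ± 1281 in CKO eggs, a difference well within the spread between libraries. Some lengths and counts are uncertain. Exons of Kif3c (35.3% of its exonic bases), Kif20a (29.3%), Kif2a (19.2%), Kif4 (15.1%) and Kif1bp (10.1%) overlap another gene, and processed pseudogenes of Kif22 and Kif4 are annotated.

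Most kinesin messages of the MII egg differed by under 2-fold between knockout and control. By limma with Benjamini-Hochberg adjustment over 20388 genes, 0 of 33 kinesin genes passed an adjusted p of 0.05, where 1.51% of all genes did (0.52% higher and 0.991% lower in CKO). The log2 difference CKO minus WT was above 0 in 17 and below 0 in 16, with a median of 0.00 against −0.11 over all genes. Its size was under 1 in 25 of 33 kinesin genes (75.8%), against 52.5% of all genes, and the kinesin genes were also the more abundant, with a median WT mean of 1127 normalized counts against 118.

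At an unadjusted limma p under 0.05 there were 4 kinesin genes (12.1%, against 16% of all genes): Kif2c and Kif22 higher in CKO (6.7% of all genes), and Kif5b and Kif3b lower (9.28%). By limma-voom on the recovered reads, 0 passed (0.839% of all genes did). The authors' deposited table gives an adjusted p to 31 of the kinesin genes and places 3 of them (9.68%) under 0.05 with over 2-fold, Kif2c higher and Kif5b and Kif3b lower, where 10.5% of all genes with an adjusted p met that rule (4.1% higher and 6.45% lower). The WT and CKO libraries did not overlap in 8 of the 33 (24.2%), against 22.4% of all genes. Of these, Kif2c, Kif22, Kif13b, Kif3a and Kif1bp were higher in CKO, and Kif15, Kif3b and Kif5b lower. In 4 of them (Kif2c, Kif15, Kif3b and Kif5b) the log2 difference was also at least 1 in size, against 15.7% of all genes. Each of these shares is near its background. The 7 genes with a polyadenylation element had log2 differences of −0.11 to 2.36 with a median of 0.22, and the median of the 25 tested genes without it was −0.27, with 0 called by limma in either set. The top value, of Kif26a, was 0.22 without WT replicate 3, and the median gene, Kif26b, was at −0.12 without it. Kif27 (1.88) rests on 10 to 101 reads per library. Whether the sets differ was not tested, and no all-gene value by element was computed.

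**Figure D2:**
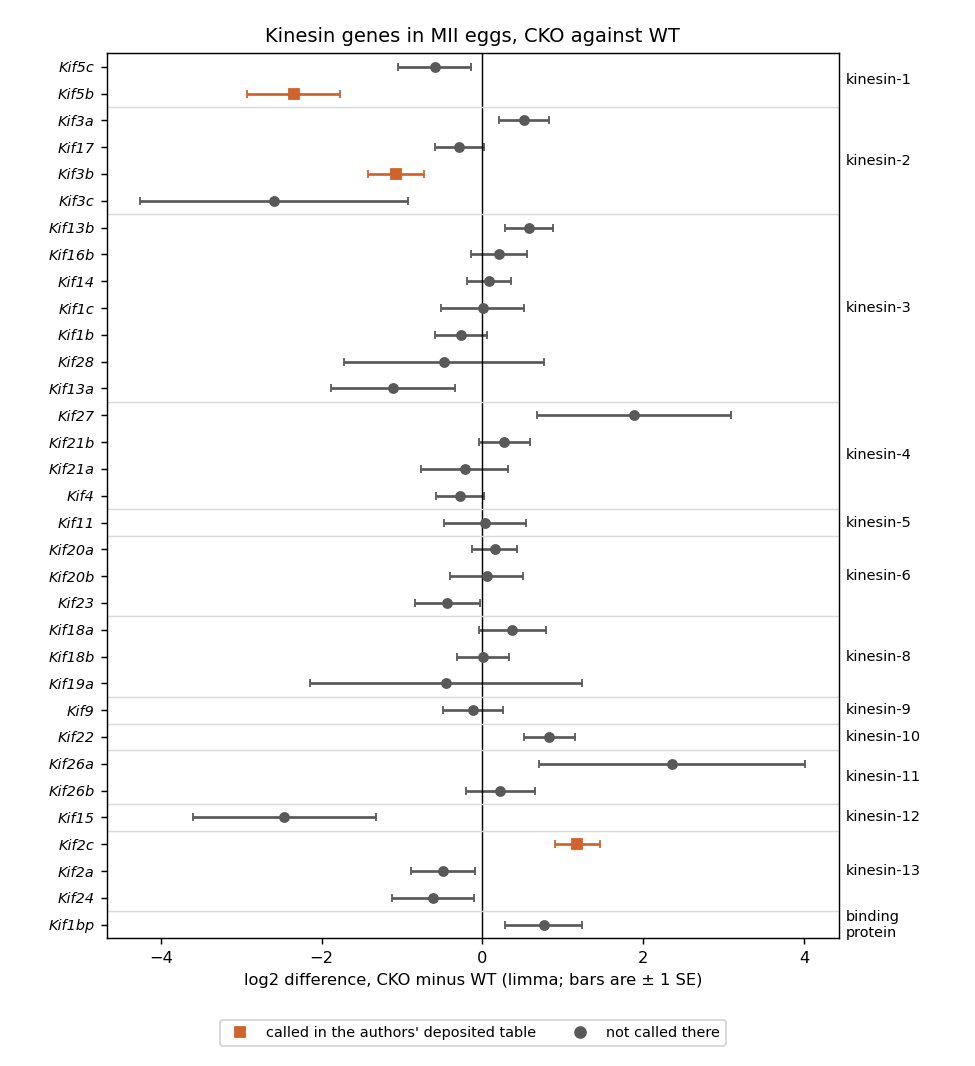
Difference between CKO and WT eggs at MII for the 33 tested kinesin genes, as the limma log2 difference with bars of 1 SE, grouped by class, where squares mark the genes called in the authors' deposited table. Most points lie between −1 and 1, and the called genes are Kif2c at 1.18, Kif3b at −1.07 and Kif5b at −2.35.

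Among the transport motors, Kif5b had the widest separation of genotypes. Kif5b is the heavy chain of conventional kinesin-1 found in most tissues, a carrier of mitochondria, vesicles and RNA granules. It had 496, 488 and 1357 normalized counts in WT replicates 1, 2 and 3, and 93.6, 137 and 190.1 in CKO replicates 2, 3 and 4. All 3 CKO libraries lay below all WT libraries, also with WT replicate 3 set aside. The mean was 18% of WT (780.2 ± 499.8 to 140.1 ± 48.3, SD, n = 3). The log2 difference by limma was −2.35 (SE 0.58, adjusted p = 0.0819), and −1.86 without WT replicate 3. The authors' deposited table gives −2.48 with an adjusted p of 0.000755.

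The other kinesin-1, Kif5c, was the more abundant and did not separate. Its values were 5472, 4468 and 15964 in WT and 3753, 5180.2 and 5822 in CKO. The single high WT library sets its mean, and the log2 difference of −0.60 (SE 0.46, limma adjusted p = 0.577) was −0.03 without it. Kif5a, a neuronal kinesin-1, had no read in any WT library, where 3 reads would be 1.54 to 1.79 normalized counts, and at most 4 reads in a CKO library. The kinesin-1 share of the motor sum was 8.65% ± 4.93 in WT and 5.05% ± 0.779 in CKO, with Kif5c making up most of it in both.

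Kinesin-2 gave opposite directions for the partners of 1 motor. Kif3a and Kif3b pair with the adaptor Kifap3 in the heterotrimeric kinesin-2 that serves cilia and vesicle transport. Kif3b had 1228, 1453 and 1865 normalized counts in WT and 838, 636 and 669 in CKO, so that every CKO library lay below every WT library. Its CKO mean was 47.1% of WT (limma −1.07, SE 0.35, adjusted p = 0.162, and −0.91 without WT replicate 3), and the authors' deposited table gives −1.08 with an adjusted p of 0.0114. Kif3a had 1423, 1367 and 1362 in WT and 1848, 1704 and 2477 in CKO, all CKO libraries being higher (0.52, SE 0.31, limma adjusted p = 0.436). Kif17 carried most of the class with 5821, 6035 and 3934 in WT and 5289.6, 3433 and 4197 in CKO, which overlap (−0.29, SE 0.31, limma adjusted p = 0.633). Kif3c, the alternative partner of Kif3a, was low and ran from 0 to 237, too wide a spread within WT for a comparison.

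The kinesin-3 genes carry vesicles and organelles, apart from Kif14, which acts at the midbody. Kif14 had 11731, 10002 and 9570.3 normalized counts in WT and 10164, 13849 and 9519 in CKO, a difference of 0.08 (SE 0.27, limma adjusted p = 0.888) that is smaller than the spread within either genotype. Kif13b had 4569.9, 3569 and 2836 in WT and 6595, 4894 and 4821 in CKO, which do not overlap (0.58, SE 0.30, limma adjusted p = 0.37). Kif1b, Kif1c and Kif16b lay between −0.26 and 0.21, and Kif13a, at 21.2 per kb in WT, at −1.11 (SE 0.77, limma adjusted p = 0.52). Kif28 had 0 to 14 reads per library. Kif1bp, whose protein binds several kinesins and blocks them from microtubules, had 271, 193 and 306 in WT and 335, 403 and 583 in CKO (0.76, SE 0.48, limma adjusted p = 0.472). Its CKO libraries were all higher, by a margin smaller than the spread within a genotype.

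Of the spindle and chromosome motors, Kif2c and Kif22 had CKO libraries that all lay above WT, and neither passed the adjusted limma test. Kif2c (MCAK), the kinesin-13 that shortens microtubules at centromeres and corrects their attachment, had 2843, 2129 and 2197 normalized counts in WT and 5606, 4724 and 5872 in CKO. The groups lay far apart and each was tight. The CKO mean was 2.26-fold the WT mean (5401 ± 601 against 2389.7 ± 394, SD, n = 3), and limma gave 1.18 (SE 0.28, adjusted p = 0.0735). The authors' deposited table gives the same size, 1.18, with an adjusted p of 0.000402. Leaving out any 1 library kept the limma difference between 1.11 and 1.31. Its adjusted p was 0.0559 without WT replicate 3, and 0.0989 to 0.198 without any other single library.

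Kif22 (Kid), a kinesin-10 that binds chromosome arms and pushes them from the poles, had 7439, 6306 and 3781 in WT and 10813, 10340.2 and 8931 in CKO. No WT library reached the lowest CKO library, but WT replicate 3 was well below the other WT libraries. The limma difference was 0.83 (SE 0.32, adjusted p = 0.234), and 0.55 without that library. The authors' deposited table gives 0.78 with an adjusted p of 0.135. The Kif22 share of the motor sum was 8.71% ± 3.64 in WT and 14.9% ± 2.69 in CKO, and reads of its annotated processed pseudogene may be counted with it.

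The chromokinesin Kif4, which works with PRC1 on chromosomes and the central spindle, did not separate: 9843, 9404 and 12693 in WT, and 6625, 8788 and 11406 in CKO (−0.27, SE 0.30, limma adjusted p = 0.635). Kif23 had 13162, 15078 and 34629 in WT and 11862, 12201 and 19222 in CKO. As with Kif5c, 1 WT library is far above the rest, and the difference of −0.43 (SE 0.40, limma adjusted p = 0.627) was −0.00 without it. The other kinesin-6 genes, Kif20a and Kif20b, differed by 0.15 and 0.05. Kif11 had 379.6, 455 and 1223 in WT and 589, 506 and 762 in CKO, a difference of 0.03 with an SE of 0.51. The CKO values of this spindle motor lie inside the WT range.

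Kif18b, a kinesin-8 that limits astral microtubule length, had the smallest difference among the leading genes of each class, with 1034, 873 and 1091 normalized counts in WT and 1002, 1038 and 964 in CKO (0.01, SE 0.33, limma adjusted p = 0.993). Kif18a, the kinesin-8 of chromosome alignment, differed by 0.37 (SE 0.42) with overlapping groups. Kif15 was low, with 212, 121 and 169 in WT and 4.13, 63.3 and 78.5 in CKO. Its CKO libraries all lay below WT, but it rests on 3 to 360 reads per library, and the difference of −2.47 (SE 1.14, limma adjusted p = 0.326) moved to −1.20 without CKO replicate 2, which has the lowest value.

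The remaining classes did not separate. Kif9, a kinesin-9 best known from the sperm flagellum, had 1253, 1315 and 812 in WT and 972, 1357 and 803 in CKO (−0.11, SE 0.37, limma adjusted p = 0.891). Kif26b, a kinesin-11 without motor activity of its own, had 866, 754 and 393 in WT and 587, 868 and 804 in CKO (0.22, SE 0.43, limma adjusted p = 0.794). Its relative Kif26a had no read in WT replicate 3, and its difference of 2.36 was 0.22 without that library. Kif2a, the other kinesin-13 with a broad role in spindle poles, differed by −0.49 (SE 0.40) and Kif21b, a kinesin-4, by 0.27 (SE 0.31), both with overlapping groups. The ciliary genes Kif27 and Kif19a were at or below 10 per kb in WT (Kif27 at 13.2 in CKO), with as few as 10 and 0 reads in a library.

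**Figure D3:**
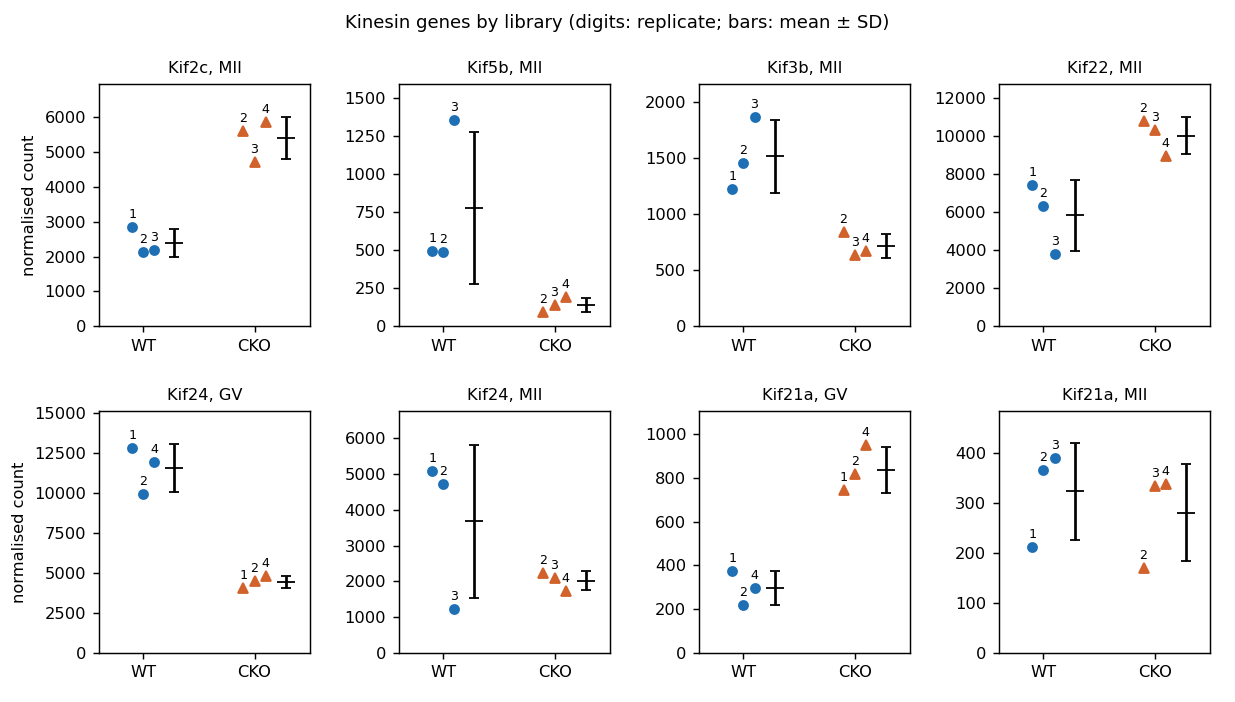
Normalized counts of Kif2c, Kif5b, Kif3b and Kif22 at MII, and of Kif24 and Kif21a at GV and MII, on linear axes from 0, with circles for WT libraries, triangles for CKO libraries, digits for the replicate and black bars for mean ± SD (n = 3). All CKO libraries of Kif2c and Kif22 lie above WT and those of Kif5b and Kif3b below, and WT replicate 3 of Kif24 at MII, with 1222, lies below all CKO libraries.

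WT replicate 3 moved several kinesin genes. It lay over 2-fold above the mean of the other WT libraries in 5 of the kinesin genes (Kif5b, Kif5c, Kif11, Kif20b and Kif23) and over 2-fold below in 7 (Kif3c, Kif19a, Kif24, Kif26a, Kif26b, Kif27 and Kif28), against 22.5% and 35.7% of all genes, and it was the highest WT library in 13, the lowest in 13 and between the others in 7. Among 29 kinesin genes with values above 0 in all 6 libraries, the highest WT library exceeded the lowest by a median of 1.76-fold, and the highest CKO library by 1.48-fold. The ratio was over 2 in 11 of them in WT and in 6 in CKO.

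Kif24 was the kinesin gene whose call turned on this library. Kif24 is a kinesin-13 that acts at centrioles and restrains the formation of cilia. At MII it had 5086, 4724 and 1222 normalized counts in WT and 2241, 2096 and 1731 in CKO. The first WT libraries lie above all CKO libraries and the last one below them. limma gave −0.62 (SE 0.51, adjusted p = 0.612) with all libraries and −1.28 (adjusted p = 0.0352) without WT replicate 3, the only kinesin gene that passed there, where 4.37% of all genes did. With libraries weighted by their agreement with the rest (limma array weights, chosen after seeing the data), 2 kinesin genes were higher (Kif2c and Kif22) and 3 lower (Kif5b, Kif3b and Kif24), and 15.6% of all genes passed.

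**Figure D4:**
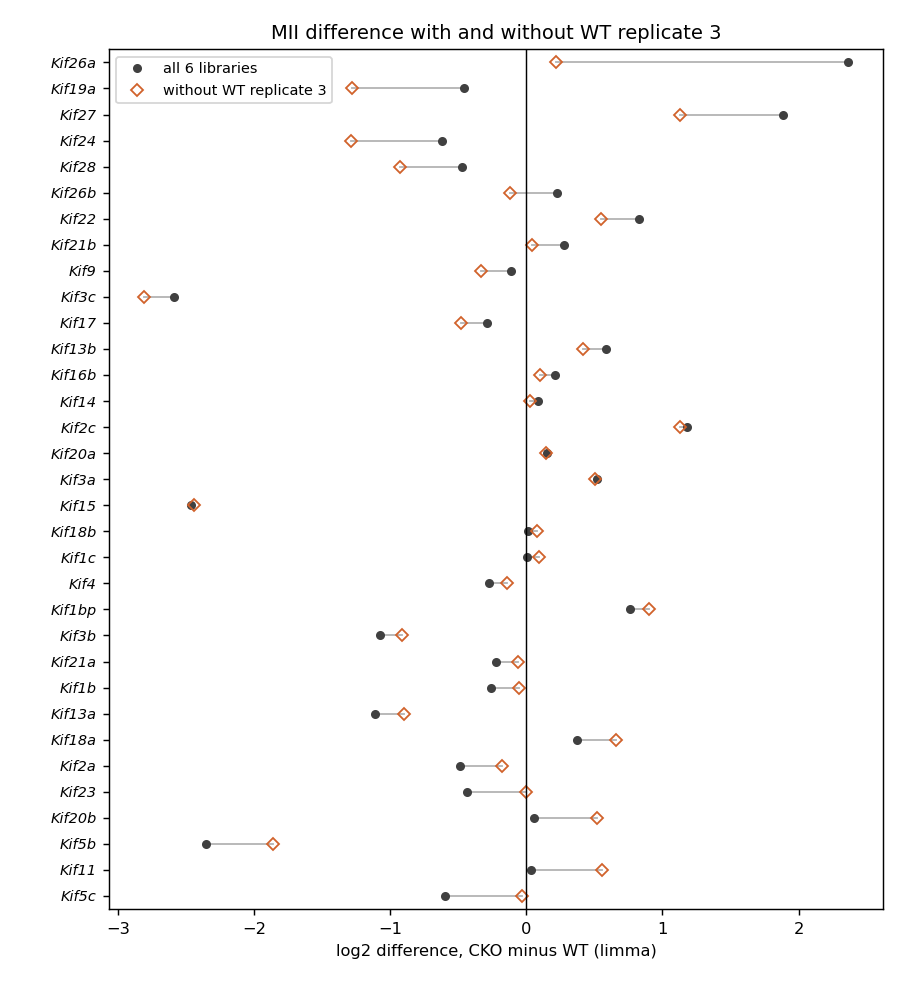
limma log2 difference CKO minus WT at MII of each tested kinesin gene (rows), with all 6 libraries (filled circles) and without WT replicate 3 (open diamonds), joined by a line. Kif24 moves from −0.62 to −1.28 and Kif26a from 2.36 to 0.22, while Kif2c stays above 1 in both.

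At the GV stage Kif24 and Kif21a are the listed kinesin genes, 5.88% of the 34, where 16.2% of the genes tested by the authors are listed. Their difference chose them for that table, so the GV values are a description. Kif24 had 12827, 9907 and 11923 normalized counts in WT replicates 1, 2 and 4, and 4062, 4486 and 4790.5 in CKO replicates 1, 2 and 4. Every CKO library lay below every WT library by more than the whole WT range. The CKO mean was 38.5% of WT (11552 ± 1495 to 4446 ± 366, SD, n = 3), and the authors' deposited table gives a log2 change of −1.38 (SE 0.15) with an adjusted p of 6.97e-18. By the authors' adjusted p and fold rule, 12.9% of the genes tested at GV pass (4.96% higher and 7.89% lower in CKO).

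Kif21a, a kinesin-4 that slows microtubule growth at the cell cortex, differed in the other direction. It had 375, 219.6 and 298 in WT GV oocytes and 744, 820.1 and 952 in CKO, and every CKO library was above every WT library. The CKO mean was 2.82-fold the WT mean (839 ± 105 against 298 ± 77.6, SD, n = 3), with a log2 change of 1.49 (SE 0.31) and an adjusted p of 2.22e-05 in the authors' deposited table. At MII the same gene had 212, 367 and 391 in WT and 169, 334 and 339 in CKO. These groups overlap (−0.22, SE 0.54, limma adjusted p = 0.843). The stages were normalized separately, and whether the effect on Kif21a or Kif24 differs between them was not tested.

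The proteins that load, anchor and regulate kinesins were followed in lists fixed by name. Of 20 listed light chains, adaptors and regulators, 18 were tested at MII and limma called 0 higher and 0 lower, with a median log2 difference of −0.18 and 4 genes at an unadjusted p under 0.05 (22.2%, against 16% of all genes). The authors' deposited table calls 2 of 17 at MII (against 10.5% of all genes), the kinesin-1 light chains Klc2 and Klc4, both higher. Klc4 was at 301 ± 51.3 in WT and 918 ± 175 in CKO (1.61, SE 0.40, limma adjusted p = 0.0849). Its limma adjusted p was 0.0386 without WT replicate 3, and 0.134 to 0.195 without any other single library. Klc2 was at 344 ± 85.0 and 1002 ± 224 (1.54, SE 0.41, limma adjusted p = 0.0966). Light chains link kinesin-1 to its cargo, and the difference in Klc2 and Klc4 is opposite to that of the heavy chain Kif5b.

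At GV, 7 of the 22 genes of this list are in the table, 5 higher and 2 lower in CKO, where 16.2% of the genes tested by the authors are listed. Klc4 was at 1371 ± 80.7 in WT and 3583 ± 377 in CKO (1.39, adjusted p = 6.21e-16 in the authors' deposited table), and Klc2 at 675 ± 252 and 2210.0 ± 301 (1.71, adjusted p = 6.23e-07). Klc2 and Klc4 thus stood higher in CKO in the libraries of both stages. Klc1, the light chain with the highest level per kb in WT eggs, had the other direction, with 1422 ± 899 in WT and 785 ± 166 in CKO at MII (−0.71, SE 0.46, limma adjusted p = 0.489, and −0.22 without WT replicate 3), and it is not listed at GV. Map7d2, a microtubule protein that recruits kinesin-1, was at 143 ± 16.8 and 458 ± 119 (1.68, adjusted p = 0.000112 in the authors' deposited table). Fez2, a kinesin adaptor, was at 1307 ± 440.3 and 419 ± 104 (−1.64, adjusted p = 3.77e-05). At MII the limma differences of these genes were 0.97 for Map7d2 (adjusted p = 0.616, and 0.23 without WT replicate 3) and −1.19 for Fez2 (adjusted p = 0.422).

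Of the motors outside the symbol rule, 4 were tested at MII, and limma called 0. All 4 differences were below 0, with a median of −0.80. Cenpe was at 9262 ± 6287 in WT and 4268 ± 1097 in CKO with overlapping libraries (−0.94, SE 0.44, limma adjusted p = 0.337, and −0.42 without WT replicate 3). Kifc1 also overlapped (−0.66, SE 0.33, limma adjusted p = 0.353). Kifc3, a minus-end directed kinesin-14 (named after its value was seen), was at 1963 ± 495 in WT and 829 ± 65.2 in CKO (−1.21, SE 0.34, limma adjusted p = 0.113). It is the 1 gene of these 4 called in the authors' deposited table at MII, against 10.5% of all genes. Kifc2 is the 1 of the 5 genes of this list that is listed at GV (16.2% of all genes tested there are), at 32.8 ± 17.3 in WT and 139 ± 30.9 in CKO.

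For cytoplasmic dynein and dynactin, the motor that walks against most kinesins, limma called 0 of 23 at MII, with a median difference of 0.00. At an unadjusted limma p under 0.05 there were 3 genes, all higher (13%, against 16% of all genes in either direction and 6.7% higher). The authors' deposited table calls 2 of 22 at MII, where 10.5% of all genes with an adjusted p were called. Both were higher: Actr1b, of the dynactin filament (1.61, adjusted p = 0.013), and the dynein light chain Dynlt3 (1.21, adjusted p = 0.0423). Listed at GV are 3 of 24, where 16.2% of the genes tested by the authors are listed: Nde1, Dynlt3 and Actr1b, all higher in CKO. Neither count is above its background taken in either direction. For genes higher in CKO alone, the authors' adjusted p and fold rule gives 4.1% of all genes at MII and 4.96% at GV. Both counts are above these shares, on few genes, and this was not tested. Nde1, a dynein regulator, was at 1972 ± 458 in WT and 6238 ± 919.6 in CKO (1.66, adjusted p = 4.52e-13 in the authors' deposited table), and its MII difference was 1.52 (SE 0.48, limma adjusted p = 0.149). Of 21 spindle partners of mitotic kinesins, limma called 0 at MII and so did the authors' test in their deposited table, and 4 had an unadjusted limma p under 0.05 (19%, against 16% of all genes). The genotypes did not overlap in 8 (38.1%, against 22.4% of all genes): Birc5, Mapre2, Mapre3 and Clasp2 were higher in CKO, and Aurkb, Aurkc, Tacc3 and Numa1 lower. Birc5 was at 1875 ± 1158 in WT and 5022 ± 1777 in CKO (1.53, SE 0.44, limma adjusted p = 0.12). The authors' adjusted p for it was 0.0515. Of the 21 spindle partners, only the microtubule-end protein Mapre3 is listed at GV, where 16.2% of the genes tested by the authors are listed. It was at 1423 ± 355 in WT and 3477 ± 327 in CKO.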

How the data were processed

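Both deposited tables (1 per stage) were used. The authors deposited each gene's value in each library as log10(normalized count + 1), and 10 to the power of the value, minus 1, was used here. Per the file headers, each table also holds columns by the authors for the mean signal of its 6 libraries, the log2 fold change, that change's standard error and score, and the p-value before and after adjustment. The mean recomputed here matched the deposited mean signal to a relative difference of 1.43e-14. For the aligner, build, annotation and strand of counting, the entry is: not given in the sources used here. All values were whole multiples of 1 read per library (100% within 0.05), which gave the depths. At MII, log2(normalized count + 1) was fitted by limma 3.58.1 (R 4.3.3, trended prior variance) for all genes with a mean of at least 1, with genotype as the term and Benjamini-Hochberg adjustment. On this log2 scale, changes of low genes can come out smaller or larger than in the authors' test. Kif19a was at −0.45 by limma and −1.43 in the authors' deposited table, and Kif26a at 2.36 and 0.77. The scripts were tested on simulated data. No fit was made at GV, whose table holds selected genes: folds and p-values there were taken from the authors' deposited table. Levels per kb use exonic lengths of GENCODE M21, not necessarily the authors' annotation. Named one by one were the members called at MII or listed at GV, those with no overlap between genotypes and a log2 difference of at least 1, the highest member of each class, and up to 4 genes of each partner list. Genes outside this rule are given briefly. The members, lists and rules were chosen with earlier results of these data known. Alternatives were limma-voom on recovered reads, other pseudocounts, filters and scaling, a replicate block, leaving out each library, and array weights.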

Additional observations from a re-analysis of the deposited data

How the results depend on the processing

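Over the alternatives run, the count of kinesin genes called at MII was 0 higher and 0 lower except without WT replicate 3 (1 lower, so 0 to 1 lower and 0 to 0 higher over single left-out libraries) and with array weights, chosen after seeing the data (2 higher, 3 lower). Over all genes, limma called 106 higher and 202 lower; leaving out 1 library gave 0 to 266 and 0 to 624 (both above 0 only without WT replicate 3), limma-voom 91 and 80, and array weights 1297 and 1893. The replicate numbers of the labels showed no visible pairing. At MII the deviations of same-numbered libraries correlated at 0.0133 and −0.101, and those of other pairs at −0.0994 to 0.126. At GV the same-numbered values were −0.0119, 0.016 and 0.00101, and the others −0.0294 to 0.0304. With so few libraries these values cannot show whether libraries shared an animal or a batch. In the replicate block fit at MII, only replicates 2 and 3 occur in both genotypes. The genotype difference there rests on those libraries alone, without WT replicate 1 and CKO replicate 4, and the fit had little power to call a gene. It called 0 higher and 0 lower of all genes and of the kinesin genes, which therefore says little. Its values for Kif11 (−0.45) and Kif9 (0.15) had the reverse sign, on this smaller set of libraries. Array weights reversed Kif26b (−0.040). Leaving out single libraries moved Kif21a at MII between −0.50 and 0.11, Kif26b between −0.12 and 0.45, Kif14 between −0.080 and 0.19, Kif11 between −0.29 and 0.55, Kif18b between −0.085 and 0.075, and Kif9 between −0.33 and 0.060. None of these passed the test. Of 300 alternative values for 25 genes named singly, 273 kept direction and side of the threshold, 14 newly passed it and 13 changed sign. The causes were not tested. At 3 libraries per group an exact permutation test cannot go below 0.1. Kif3c, Kif5a, Kif15, Kif19a, Kif26a and Kif28 had under 10 reads in some library.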

Other observations

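Ratios of subunits within a library do not depend on the scaling between libraries. They were computed for 5 pairs chosen after the values were seen, from levels per kb of exon, and are descriptions with no test. Kif3a over Kif3b, the motor subunits of heterotrimeric kinesin-2, was 1.82, 1.48 and 1.15 in WT replicates 1, 2 and 3, and 3.46, 4.21 and 5.81 in CKO replicates 2, 3 and 4. Every CKO egg pool held more Kif3a message relative to Kif3b than any WT pool. Kifap3, their adaptor, over Kif3b was 0.526, 0.217 and 0.00695 in WT and 0.57, 0.722 and 0.659 in CKO, where the low end in WT is replicate 3.

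Within kinesin-1, Kif5b over Kif5c was 0.0811, 0.0977 and 0.0761 in WT and 0.0223, 0.0236 and 0.0292 in CKO. WT replicate 3, in which both genes were higher than in the other WT libraries, had a ratio like theirs. The summed light chains (Klc1, Klc2, Klc3 and Klc4) over the summed heavy chains (Kif5b and Kif5c) were 0.476, 0.674 and 0.341 in WT and 1.61, 0.946 and 1.07 in CKO. Within kinesin-13, Kif2c over Kif2a was 2.79, 1.56 and 0.977 in WT and 7.07, 4.92 and 3.93 in CKO, and exons of Kif2a overlap another gene. The pairs were picked around genes whose libraries were known to lie apart, so that the lack of overlap in these ratios follows in part from the choice.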
